A study of Mus musculus with 8 samples.

Results

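The claudins, the desmosomal cadherins and plakophilins, and the connexins are the genes whose products hold neighbouring cells together and let small molecules pass between them. They were taken from the deposited expression table by symbol, as every gene named Cldn, Dsg, Dsc or Pkp, or Gja to Gje, followed by a digit. This gave 67 of the 36333 genes listed: 34 claudins, 9 desmosomal cadherins, 4 plakophilins and 20 connexins. The measurements are bulk RNA sequencing of ventral prostate lobes from 4 hSKP2-KI and 4 WT male mice, all FVB/N and 12 months old, with 1 library per mouse. In hSKP2-KI mice the coding sequence of human SKP2, an F-box protein that targets cell cycle inhibitors for degradation, had been placed behind a P2A peptide in exon 1 of the endogenous probasin gene. Expression of the insert therefore followed the probasin promoter, which is active in prostate epithelium and depends on androgen. The mice came from heterozygous knock-in females bred with WT males, and the labels do not say from which founder line. The WT mice carried no insert.

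Claudins are membrane proteins that form the strands of tight junctions and decide which ions cross between epithelial cells. Desmosomes join the keratin networks of adjacent cells: their cadherins, the desmogleins (Dsg) and desmocollins (Dsc), bind across the gap, and plakophilins (Pkp) and plakoglobin tie them to desmoplakin inside. Connexins assemble into gap junction channels, and each tissue uses its own set, with Gjb1 and Gjb2 typical of glandular epithelium and Gja1, Gja4, Gja5 and Gjc1 of stroma, vessels and muscle.

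Levels are given as TPM, in which reads on a gene are divided by transcript length and every library is scaled to the same total, so levels can be compared between genes. The number of reads behind a value is unknown. Differences are log2 fold changes of TPM + 1, hSKP2-KI minus WT, from limma over the 13080 genes reaching 1 TPM in 4 or more of the 8 libraries, and the added 1 makes those of low genes smaller than their TPM ratio. A gene is called when its Benjamini-Hochberg adjusted p over all genes tested is under 0.05. Sbp, Spink1 and Sbpl, secretory genes that mark the ventral lobe, held 40.4 to 45.8% of the TPM in WT libraries and 32.1 to 34.3% in hSKP2-KI libraries. The median log2 fold change of all genes tested was 0.23 and not 0, so each difference is also given after median-ratio scaling, which placed this median at -0.01. Skp2 stood at 48.1 ± 10.1 TPM in hSKP2-KI and 1.75 ± 0.528 in WT libraries (SD, n = 4 each), a value in which reads of the human insert may be included. Pbsn, the gene that received the insert, had 115 ± 39.6 against 5984 ± 2447 TPM (SD, n = 4 each). The p-values measure the spread between these mice.

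Of the 67 junction genes, 26 passed the filter on low values and were tested: 11 claudins, 9 connexins, all 4 plakophilins and, of the desmosomal cadherins, Dsg2 and Dsc2. Of the other 41, 36 stayed under 1 TPM in all 8 libraries, and 15 of these were listed at 0 in every library. In the TPM as deposited, Cldn1, Cldn5, Cldn8, Cldn15, Dsg2, Pkp1, Gja1 and Gja5 were called higher in hSKP2-KI prostates and Cldn23 was called lower. These 9 are 34.6% of the 26 tested, and 33.9% of all genes tested were called, 32.7% higher and 1.23% lower. After median-ratio scaling Gja5 was still called higher and Cldn23 lower, 7.69% of the 26, where 6.92% of all genes were called higher and 4.25% lower. Leaving out 1 library moved the 9 to between 7 and 11 and the 2 to between 1 and 3, with 1 left without hSKP2-KI replicate 2, WT replicate 3 or WT replicate 4. The members' median log2 fold change was 0.29 in the TPM as deposited and 0.06 after scaling. As a group the junction genes were thus called about as often as other genes, and the values that follow describe which of them differed.

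**Figure D1:**
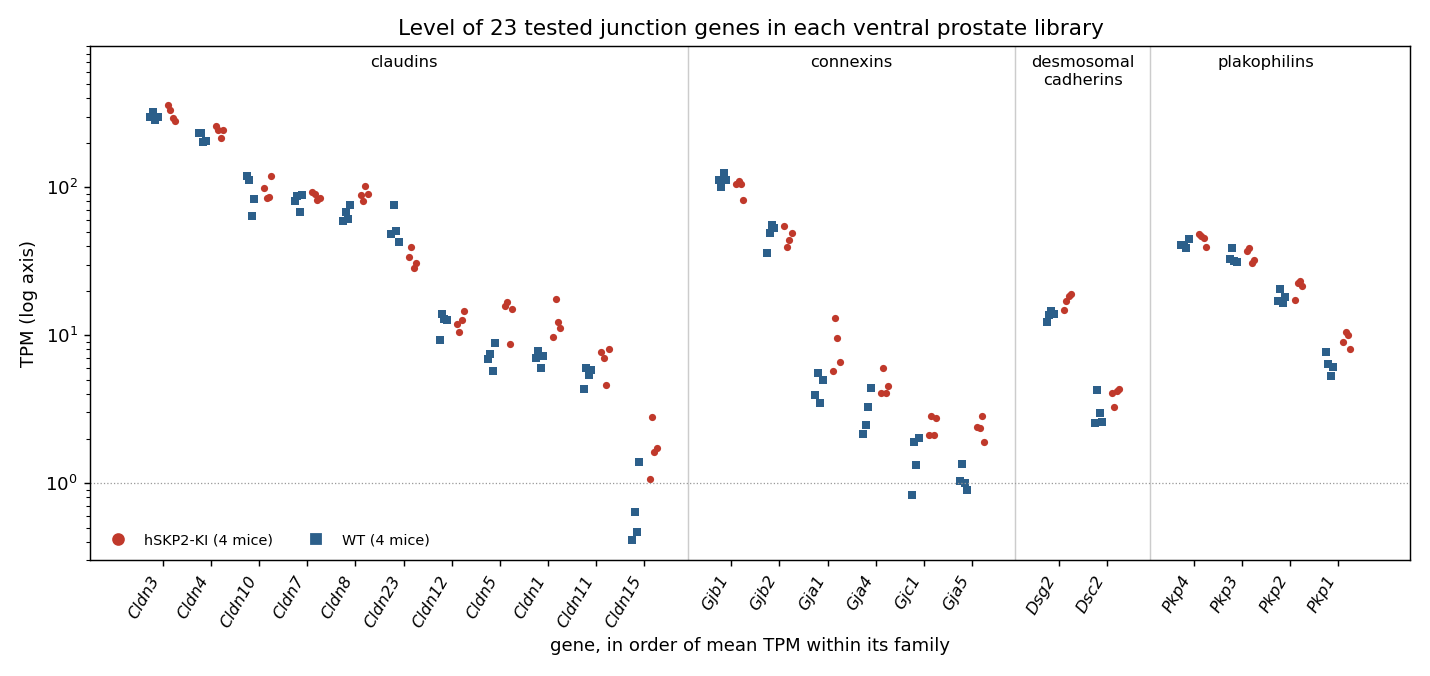
TPM on a log axis of 23 of the 26 junction genes tested, in order of mean level within each family, with circles for the 4 hSKP2-KI and squares for the 4 WT libraries and a dotted line at 1 TPM. Cldn3 and Cldn4 stand highest, above 200 TPM in every library. The genotypes separate downward for Cldn23, as for 1.03% of all genes tested. They separate upward for Cldn1, Cldn8, Gja1, Gja5, Gjc1, Dsg2 and Pkp1, as for 34.0% of all genes tested. After median-ratio scaling, Cldn1 and Gja5 still separate upward, as for 10.3% of all genes tested, and Cldn23 and Gjb1 separate downward, as for 8.91%.

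To show the DNA upstream of the members called higher, the promoters of the 4 with the largest log2 fold change of TPM + 1 and a promoter entry in RefSeq (GRCm38.p6) are printed 5′ to 3′, from 250 bases before to 50 bases after the start of transcription. They lie at chr16:18776597-18776896 on the plus strand, chr10:56377050-56377349 on the plus strand, chr16:26371790-26372089 on the minus strand and chr3:97032152-97032451 on the plus strand. Capitals mark the GC box GGGCGG or its complement CCGCCC, the core letters of binding sites of SP family factors.
Cldn5: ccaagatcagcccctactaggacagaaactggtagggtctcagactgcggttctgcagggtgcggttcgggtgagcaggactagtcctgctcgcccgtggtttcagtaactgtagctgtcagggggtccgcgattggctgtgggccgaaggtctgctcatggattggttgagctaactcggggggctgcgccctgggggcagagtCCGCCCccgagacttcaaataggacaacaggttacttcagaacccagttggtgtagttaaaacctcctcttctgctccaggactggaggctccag
Gja1: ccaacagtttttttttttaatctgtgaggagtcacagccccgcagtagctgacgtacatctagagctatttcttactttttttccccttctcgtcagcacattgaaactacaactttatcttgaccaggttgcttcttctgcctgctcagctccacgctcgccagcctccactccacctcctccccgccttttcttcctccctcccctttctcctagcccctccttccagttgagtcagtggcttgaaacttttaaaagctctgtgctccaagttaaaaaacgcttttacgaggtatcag
Cldn1: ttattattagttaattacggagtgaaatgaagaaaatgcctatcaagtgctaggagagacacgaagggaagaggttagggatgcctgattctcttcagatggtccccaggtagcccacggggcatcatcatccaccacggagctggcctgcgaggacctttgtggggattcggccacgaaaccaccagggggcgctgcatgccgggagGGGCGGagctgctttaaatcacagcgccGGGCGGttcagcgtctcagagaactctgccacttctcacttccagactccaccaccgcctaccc
Gja5: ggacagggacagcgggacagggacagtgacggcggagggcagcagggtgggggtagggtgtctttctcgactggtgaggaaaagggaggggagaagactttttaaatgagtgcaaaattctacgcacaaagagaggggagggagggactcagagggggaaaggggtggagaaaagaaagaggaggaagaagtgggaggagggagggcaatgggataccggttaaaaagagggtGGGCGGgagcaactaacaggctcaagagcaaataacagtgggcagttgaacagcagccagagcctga

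The Cldn5 and Gja5 promoters each held 1 GC box, at -45 and -17 from the start, Cldn1 held 2, at -42 and -14, and Gja1 held none. GC boxes were found in 15 of the 23 promoters listed for the tested members and in 35.7% of all 32851 mouse promoters of the same length. None of the 4 held CAGGTG or its complement CACCTG, the E-box that repressors of the Snail and ZEB families bind, nor TATAAA or TTTATA. The E-box letters were found in 6 of the 23 promoters of tested members and in 20.2% of all promoters, and the TATA letters in 1 of the 23 and in 13.6%. These promoters belong to 15 of the 26 tested members, several of which have more than 1 listed start, and 39 of the 67 junction genes had an entry. Both strands were searched, none of the 3 motifs contains another, and a match says nothing of a bound factor.

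The claudin layer of the ventral prostate was made of a few abundant genes whose levels differed little between genotypes. Cldn3, a sealing claudin of glandular epithelium, had TPM of 361, 331, 292 and 278 in the hSKP2-KI mice and 300.0, 322, 285 and 299.8 in the WT mice, and Wbscr25 overlaps it on the opposite strand in GENCODE, so its reads may be mixed with others. Cldn4, which is usually found beside Cldn3, had 261, 243, 214 and 244 in hSKP2-KI and 233, 231, 202 and 206 in WT mice. Cldn10, which forms ion-selective pores, ranged from 84.9 to 118 TPM in hSKP2-KI and from 63.6 to 118 in WT libraries, with 99.2, 84.9, 85.3 and 118 against 118, 112, 63.6 and 82.9. The genotypes overlapped for each of the 3. Their log2 fold changes were 0.06 (adjusted p = 0.611, limma), 0.14 (adjusted p = 0.200) and 0.07 (adjusted p = 0.766). Median-ratio scaling turned these to -0.21, -0.13 and -0.20, with p of 0.217, 0.439 and 0.566 after adjustment, so none was called under either scaling and their direction depended on it. Cldn7, another epithelial claudin, at 82.2 to 93.1 against 67.8 to 88.0 TPM, and Cldn12, at 10.5 to 14.5 against 9.31 to 13.9 TPM, gave the same picture, with log2 fold changes of 0.11 and 0.03 before and -0.15 and -0.22 after scaling. Together with Cldn8, the 4 most abundant claudins made up 90.8% ± 1.01 of all claudin TPM in hSKP2-KI and 89.5% ± 1.44 in WT libraries (SD, n = 4 each).

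Cldn23 was the junction gene called lower both in the TPM as deposited and after median-ratio scaling. It is a claudin of mucosal epithelia with a smaller literature than the others, and its gene lies at chr8:35824712-35826559 on the minus strand of GRCm38, where the GENCODE annotation gives transcripts of 1 and 2 exons and no overlapping gene. Its TPM was 34.0, 39.6, 28.6 and 30.5 in the hSKP2-KI mice and 48.0, 76.1, 50.1 and 42.7 in the WT mice. Every hSKP2-KI library lay below every WT library, a separation in this direction that 1.03% of all genes tested showed. The log2 fold change was -0.67 (standard error 0.16, adjusted p = 0.0130, limma) in the TPM as deposited and -0.93 (standard error 0.15, adjusted p = 0.00746) after median-ratio scaling, where 8.91% of all genes separated downward. The call also held after scaling to 8 epithelial markers, with -0.81 (adjusted p = 0.0128), and with each library left out in turn, where it ranged from -0.77 to -0.50. As a share of all claudin TPM in the same library, which no scaling alters, Cldn23 went from 6.34% ± 1.35 in WT to 3.62% ± 0.433 in hSKP2-KI prostates (SD, n = 4 each), without overlap. The 5 ventral prostate secretory markers, among them Sbp, Sbpl, Spink1 and Msmb, also shifted: Spink1 was called lower and Msmb higher in the TPM as deposited, their summed TPM was 328740 to 353330 in hSKP2-KI against 410650 to 463600 in WT libraries, and none was at 0. Their part in the Cldn23 result was not tested. Fewer cells of a type and less RNA per cell cannot be told apart in bulk tissue, here and in every result that follows.

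Cldn1, Cldn8, Cldn5 and Cldn15 were the claudins called higher in the TPM as deposited. Cldn1, a barrier-forming claudin best known from the epidermis, had TPM of 9.74, 17.6, 12.3 and 11.2 in hSKP2-KI and 6.98, 7.77, 6.02 and 7.24 in WT mice. The genotypes did not overlap, and 34.0% of all genes tested separated upward in the TPM as deposited and 10.3% after median-ratio scaling, where Cldn1 still separated. Its log2 fold change was 0.75 (standard error 0.16, adjusted p = 0.00708, limma) and, after median-ratio scaling, 0.51 (standard error 0.15, adjusted p = 0.0556), just short of a call. Without hSKP2-KI replicate 1 the scaled value passed, with adjusted p = 0.0416, and without replicate 2, the library with the highest Cldn1, the unscaled log2 fold change was 0.59 (adjusted p = 0.0107). Cldn1 was 1.40% ± 0.388 of claudin TPM in hSKP2-KI and 0.823% ± 0.0346 in WT libraries (SD, n = 4 each), also without overlap.

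Cldn8, a paracellular barrier claudin of the distal nephron and other glandular ducts, was the one called among the 5 most abundant claudins. Its TPM of 89.1, 81.0, 102 and 89.9 in hSKP2-KI lay above the 58.7, 68.3, 61.0 and 75.9 in WT mice without overlap. Its log2 difference was 0.45 (standard error 0.10, adjusted p = 0.00838, limma), against 0.19 (adjusted p = 0.198) with median-ratio scaling, where the scaled libraries overlapped. Cldn5, the main claudin of blood vessel endothelium, ranged from 8.69 to 16.9 TPM in hSKP2-KI and from 5.70 to 8.89 in WT libraries, and hSKP2-KI replicate 3 at 8.69 lay inside the WT range. On the log2 scale of TPM + 1 it had the largest fold change of the 26 tested members, 0.85 (standard error 0.19, adjusted p = 0.00915), and with median-ratio scaling 0.61 (adjusted p = 0.0647). Leaving out hSKP2-KI replicate 3 gave 0.80 after scaling, with adjusted p = 0.00825. Cldn15, a cation pore of the intestine, had a larger ratio of mean TPM than Cldn5, 2.47 against 1.95. It was low, at 1.06 to 2.79 TPM against 0.410 to 1.40, passed the filter through its hSKP2-KI libraries, and lost its call (log2 fold change 0.70, adjusted p = 0.0316) in 6 of the 8 fits that left out 1 library, among them without hSKP2-KI replicate 2 (0.54, adjusted p = 0.0776) and without WT replicate 1 (adjusted p = 0.0851). Cldn11, known from myelin and the testis, had 6.84 ± 1.54 against 5.39 ± 0.753 TPM (SD, n = 4 each) and was not called, except without hSKP2-KI replicate 3 (adjusted p = 0.0340).

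**Figure D2:**
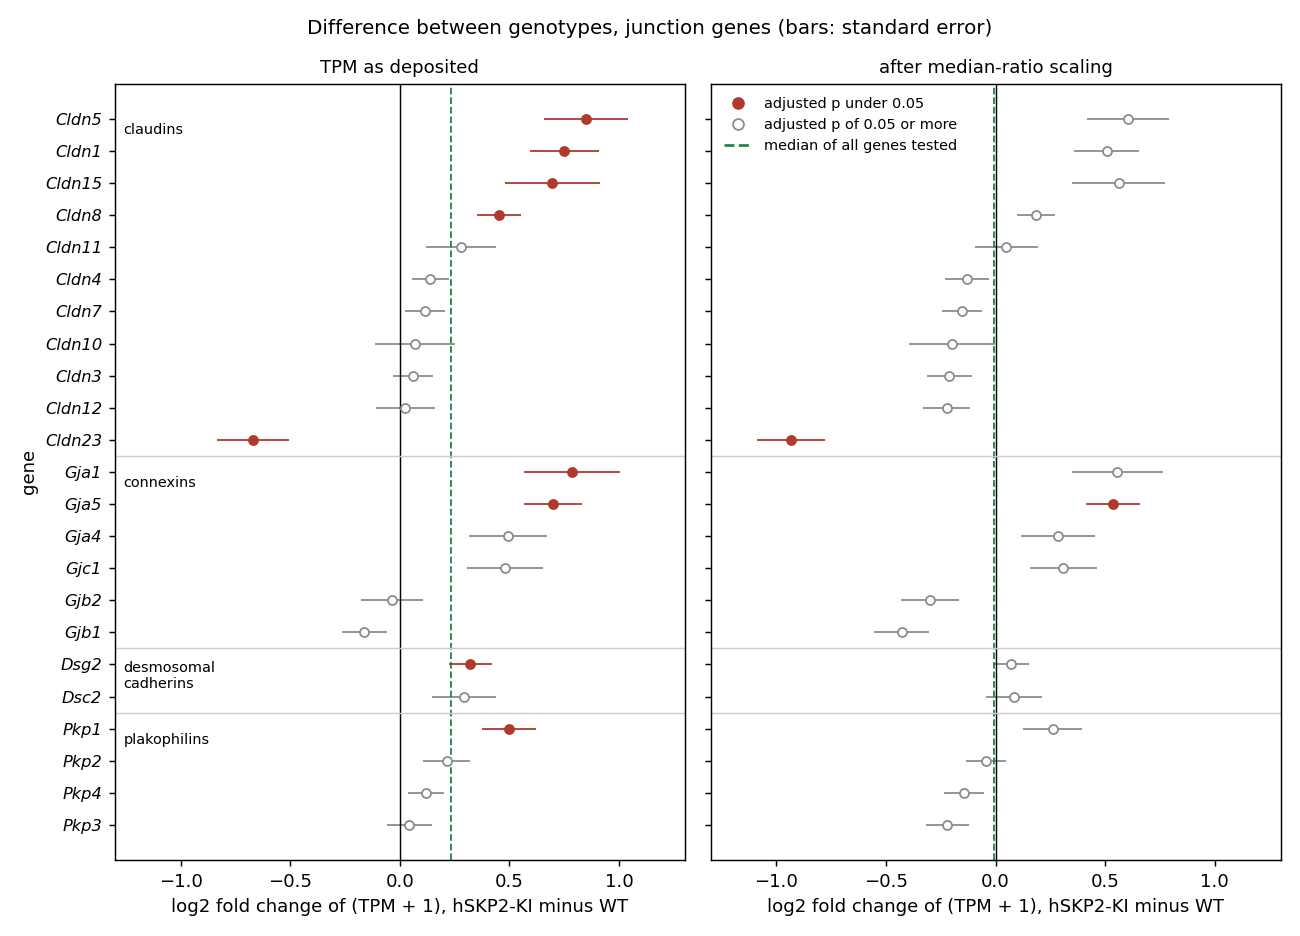
Log2 fold changes of TPM + 1 (hSKP2-KI minus WT) with standard errors for 23 of the 26 tested junction genes, in the TPM as deposited on the left and after median-ratio scaling on the right. Filled points are called, and the dashed line is the median of all genes tested, at 0.23 and -0.01. Cldn23 stays far to the left in both panels, and the other called genes move toward 0 on the right, where Gja5 at 0.54 is the remaining one.

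The connexins were led by Gjb1 and Gjb2. Gjb1, the connexin of luminal prostate and liver cells, had TPM of 106, 109.7, 104 and 81.9 in hSKP2-KI and 112, 99.9, 125 and 112 in WT mice. Gjb2, which often shares channels with Gjb1, had 54.6, 39.7, 44.1 and 49.2 against 35.7, 48.9, 55.6 and 53.4. Both overlapped between genotypes and neither was called in the TPM as deposited, with log2 fold changes of -0.16 (adjusted p = 0.225, limma) and -0.03 (adjusted p = 0.852). On the median-ratio scale Gjb1 stood at -0.43 (standard error 0.13, adjusted p = 0.0576) with every hSKP2-KI library below every WT library, as for 8.91% of all genes tested. It passed the threshold without WT replicate 2 (adjusted p = 0.0364).

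The connexins of stroma and vessels lay at lower levels and, where called, were higher in hSKP2-KI prostates. Gja1, the most widespread connexin, present in fibroblasts, smooth muscle and basal epithelial cells, had TPM of 5.74, 13.1, 9.60 and 6.55 in hSKP2-KI and 3.94, 5.57, 3.49 and 4.94 in WT mice. The groups did not overlap as deposited, though hSKP2-KI replicate 1 at 5.74 stood close to WT replicate 2 at 5.57. They overlapped after median-ratio scaling. Its log2 fold change was 0.79 (standard error 0.22, adjusted p = 0.0217, limma) and with median-ratio scaling 0.56 (adjusted p = 0.114). The unscaled call was lost without hSKP2-KI replicate 3 (adjusted p = 0.0513), WT replicate 1 (adjusted p = 0.0578) or WT replicate 3 (adjusted p = 0.0591).

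Gja5, the connexin of arterial endothelium and of the atrial conduction system, had TPM of 2.38, 2.36, 2.84 and 1.89 in hSKP2-KI and 1.04, 1.34, 0.9999 and 0.895 in WT mice, without overlap under either scaling. Upward separation was seen for 34.0% of all genes tested as deposited and 10.3% after median-ratio scaling. Gja5 passed the filter through its hSKP2-KI libraries. The log2 fold change was 0.70 (standard error 0.13, adjusted p = 0.00449, limma) and stayed called after median-ratio scaling, at 0.54 (standard error 0.12, adjusted p = 0.0236). With quantile normalization the call was lost, at 0.41 (adjusted p = 0.0764). The median-ratio call was narrow: without hSKP2-KI replicates 1, 2 or 3, or WT replicates 3 or 4, the adjusted p lay between 0.0518 and 0.0619. Its gene spans chr3:96904693-97077416 in the GENCODE annotation of GRCm38 and overlaps Gpr89 and other genes on the opposite strand, and since the strand setting of the counting is not given, reads of these genes may be mixed with its own.

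Gja4, its endothelial partner, had 4.67 ± 0.920 against 3.07 ± 0.999 TPM (SD, n = 4 each) and a log2 fold change of 0.49 (adjusted p = 0.0523, limma), which passed without WT replicate 4 (adjusted p = 0.0210). Gjc1, a connexin of smooth muscle and vessel wall, had 2.46 ± 0.407 against 1.52 ± 0.548 TPM, without overlap as deposited and with overlap after median-ratio scaling. Its log2 fold change was 0.48 (adjusted p = 0.0521, limma). Scaled by median ratio, the log2 fold changes of Gja4 and Gjc1 became 0.28 and 0.31, and neither was called.

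Summed over all connexins, the level differed by less than its spread, at 185 ± 12.4 TPM in hSKP2-KI and 186 ± 14.3 in WT libraries (SD, n = 4 each), while the shares of its members were apart. Gjb1 and Gjb2 together took 81.9, 78.1, 80.5 and 78.3% of the connexin TPM in the hSKP2-KI mice and 86.5, 84.0, 89.1 and 85.9% in the WT mice. Gja1, Gja4, Gja5 and Gjc1 together took 7.31, 12.7, 10.1 and 9.41% against 4.66, 6.37, 4.49 and 6.39%. Neither pair of ranges overlapped, the groupings were chosen after the values were seen, and no test was made. Among the called members, the shares of Cldn5, Cldn8, Cldn15, Gja1 and Dsg2 within their families overlapped between genotypes. Those of Cldn1, Cldn23, Pkp1 and Gja5 did not. In claudin TPM, Cldn5 took 1.03 to 1.82% against 0.749 to 1.07%, Cldn8 took 8.74 to 12.1% against 6.75 to 9.10%, and Cldn15 took 0.107 to 0.301% against 0.0472 to 0.168%. Gja1 took 2.93 to 6.88% of connexin TPM against 1.72 to 3.14%. Gja5 by itself was 1.28% ± 0.179 of connexin TPM in hSKP2-KI and 0.581% ± 0.133 in WT libraries (SD, n = 4 each).

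**Figure D3:**
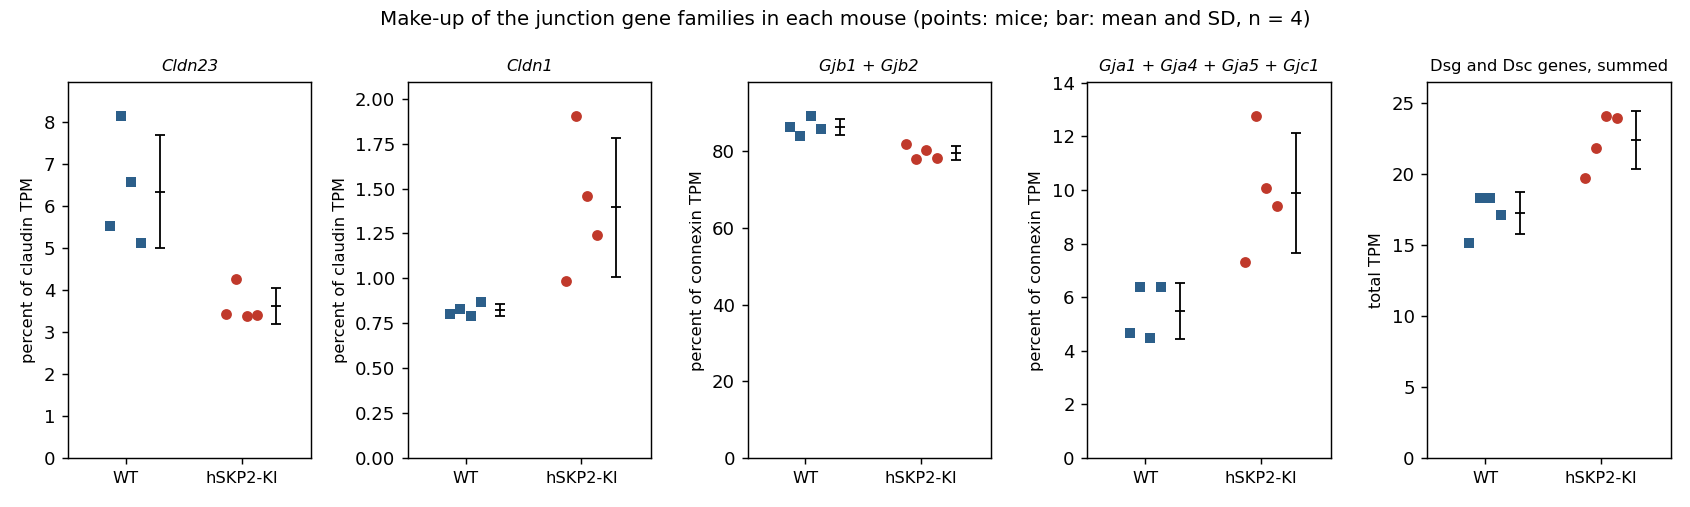
Share of Cldn23 and of Cldn1 in the claudin TPM, share of 2 groups of connexins in the connexin TPM, and summed TPM as deposited of the desmosomal cadherins, in each mouse (squares WT, circles hSKP2-KI), with the mean and SD of 4 mice and axes from 0. These 5 were drawn because the genotypes are separate in them, with Cldn23 and Gjb1 plus Gjb2 lower and the others higher in hSKP2-KI mice.

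In desmosomes, Dsg2 and Dsc2, the cadherins of simple epithelium, were the isoforms present. Dsg2 had TPM of 14.7, 17.1, 18.4 and 18.8 in hSKP2-KI and 12.2, 13.7, 14.4 and 13.9 in WT mice. These did not overlap as deposited and overlapped after median-ratio scaling. Dsc2 had 4.05, 3.26, 4.21 and 4.33 against 2.55, 4.23, 2.97 and 2.61, which overlapped through WT replicate 2. Dsc3, the desmocollin of basal layers, did not pass the filter, at 0.830, 1.32, 1.25 and 0.623 against 0.339, 0.299, 0.784 and 0.520. Dsg2 was called (log2 fold change 0.32, standard error 0.10, adjusted p = 0.0306, limma), but its call was lost in 5 of the 8 fits that left out 1 library, with adjusted p up to 0.0840 without hSKP2-KI replicate 4, and after median-ratio scaling its log2 fold change was 0.07 (adjusted p = 0.639). For Dsc2 the log2 fold change was 0.29 (adjusted p = 0.132), which passed without WT replicate 2 (adjusted p = 0.0319). An exact two-sided permutation test on Dsc3 gave p = 0.0571, where 4 mice against 4 cannot go below 0.0286. The desmosomal cadherins summed to 22.4 ± 2.05 TPM in hSKP2-KI and 17.2 ± 1.48 in WT libraries (SD, n = 4 each), without overlap as deposited and with overlap after median-ratio scaling, at 18.4, 19.6, 21.9 and 21.3 against 18.3, 18.5, 20.4 and 18.1. In GENCODE, Dsg2 overlaps the antisense gene Gm16090, whose reads may be mixed with its own. Dsg1a, Dsg1b, Dsg1c, Dsg3, Dsg4 and Dsc1, which belong to stratified epithelium, stayed at or below 0.104 TPM in all libraries, and the 3 Dsg1 genes are near-identical copies whose reads could be split.

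The plakophilins followed the same order in both genotypes. Pkp4, which also sits at adherens junctions, had TPM of 48.3, 46.4, 45.3 and 39.5 in hSKP2-KI and 40.9, 40.3, 39.0 and 44.3 in WT mice. Pkp3, the most widespread desmosomal plakophilin, had 37.3, 38.7, 30.5 and 32.0 against 32.6, 38.8, 31.5 and 31.2, and Pkp2, the isoform of heart and simple epithelium, 17.2, 22.4, 23.2 and 21.4 against 17.1, 20.4, 16.4 and 18.0. These 3 overlapped and had log2 fold changes of 0.12, 0.04 and 0.21 (adjusted p = 0.253, 0.748 and 0.138, limma), which turned to -0.14, -0.22 and -0.04 after median-ratio scaling. Pkp1, the isoform of stratified and squamous epithelium, was the lowest of the 4 and the one called. Its TPM was 8.92, 10.6, 10.00 and 8.06 in hSKP2-KI and 7.66, 6.39, 5.32 and 6.06 in WT mice. The groups did not overlap as deposited and overlapped after median-ratio scaling. The log2 fold change was 0.50 (standard error 0.12, adjusted p = 0.0133), against 0.26 (adjusted p = 0.240) after median-ratio scaling. Pkp1 was 8.52% ± 0.625 of plakophilin TPM in hSKP2-KI and 6.42% ± 0.933 in WT libraries (SD, n = 4 each), without overlap.

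Below the filter, 5 members including Dsc3 reached 1 TPM in at least 1 library. Cldn6, a claudin of embryonic epithelium, had TPM of 1.17, 1.15, 0.642 and 0.536 in hSKP2-KI and 0.277, 0.418, 0.395 and 0.566 in WT mice (exact two-sided permutation test, p = 0.0571). Gjb5, a connexin of skin and placenta, had 0.733, 1.09, 0.717 and 0.654 against 0.495, 0.534, 0.605 and 0.709 (exact permutation test, p = 0.0571). For both, the hSKP2-KI values ran higher and overlapped the WT values through 1 WT library. Cldn22, with 0.538, 0.980, 0.656 and 1.20 against 1.19, 0.641, 0.865 and 1.21, and Cldn20, with 0.675, 0.443, 0.370 and 0.225 against 0.128, 1.38, 0 and 0.261, were mixed between genotypes (exact permutation tests, p = 0.543 and 0.886). In GENCODE they overlap a coding gene on the opposite strand, Wwc2 and Tfb1m in this order, whose reads may be mixed with theirs. Cldn34c1, which never reached 1 TPM, had 0.680, 0.503, 0.581 and 0.658 in hSKP2-KI against 0.312, 0.470, 0.381 and 0.297 in WT mice. These did not overlap as deposited, where 34.0% of all genes tested separated upward. Divided by the median-ratio factors, 1.11 for hSKP2-KI replicate 2 and 0.987 for WT replicate 2, the groups overlapped. Cldn34c1 was called in the TPM as deposited when no filter was set (log2 fold change 0.23, adjusted p = 0.0460, limma). With no filter and median-ratio scaling, 2 members were called, 1 higher and 1 lower. Claudins typical of other organs, among them Cldn2, Cldn14, Cldn16, Cldn18 and Cldn19, reached at most 0.185 TPM.

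Genes that work with these proteins gave a similar split. Of 24 tight junction scaffold and strand partners, all tested, 10 were called higher in the TPM as deposited and 2 after median-ratio scaling, and none was called lower under either. The 2 were Jam2 and Jam3, adhesion molecules prominent on endothelial and stromal cells: Jam2 had a TPM of 7.21 ± 0.675 against 3.31 ± 0.777 and Jam3 8.56 ± 1.09 against 3.99 ± 1.15 (SD, n = 4 each), with scaled log2 fold changes of 0.73 (adjusted p = 0.00800, limma) and 0.73 (adjusted p = 0.0140). Ildr2, an angulin of tricellular junctions, came next at 0.53 (adjusted p = 0.0804), and Ocln, a strand protein, had -0.23 (adjusted p = 0.0895). Of the desmosome plaque genes Jup, Dsp, Ppl, Evpl and Perp, 3 were called lower after median-ratio scaling and 0 in the TPM as deposited. Perp, a desmosomal membrane protein, had 292 ± 21.7 against 342 ± 26.9 TPM (SD, n = 4 each) and a scaled log2 fold change of -0.50 (adjusted p = 0.0109). Evpl (envoplakin) had -0.35 (adjusted p = 0.0252) and Jup (plakoglobin) -0.23 (adjusted p = 0.0309), while Dsp, the plaque's link to keratin, had -0.11 (adjusted p = 0.401) and Ppl (periplakin) had 0.042 (adjusted p = 0.843). Of these, Perp kept its call with each library left out, while Evpl lost it in 5 and Jup in 7 of the 8 fits.

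Of 13 adherens junction genes, 11 were tested, 7 were called higher in the TPM as deposited and, after median-ratio scaling, Nectin1 alone, with 0.40 (adjusted p = 0.0411, limma) and a call that held in 1 of the 8 fits that left out 1 library. Cdh5, the cadherin of endothelium, had 8.72 ± 2.68 against 4.54 ± 0.963 TPM (SD, n = 4 each) and scaled 0.55 (adjusted p = 0.0730), while Cdh1 (E-cadherin), named outside the rule after its values were seen, had 162 ± 12.0 against 130 ± 14.4 TPM and 0.06 (adjusted p = 0.668) after scaling. Nectin2 and Nectin4, related adhesion receptors and next in order, had -0.22 (adjusted p = 0.125) and -0.16 (adjusted p = 0.276). Among 8 hemidesmosome genes 3 were called higher before scaling and 0 after, where Dst had an adjusted p of 0.383, Col17a1 of 0.448 and Itga6 of 0.573. Of the pannexins, which form channels without junctions, Panx1 and Panx2 were tested and 0 were called under either scaling, and Panx3 was listed at 0 throughout. In all, 20 of 50 tested partners were called higher and 0 lower in the TPM as deposited, against 3 and 3 after median-ratio scaling. Of all genes tested, 32.7% were called higher and 1.23% lower as deposited, and 6.92% and 4.25% after scaling. Leaving out 1 library moved the 20 to between 8 and 23, with 8 called without hSKP2-KI replicate 4, 9 without WT replicate 1, 11 without WT replicate 3 and 12 without hSKP2-KI replicate 3. The 6 called after scaling moved to between 3 and 6, with 3 called without hSKP2-KI replicate 4 or WT replicates 1, 3 or 4.

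**Figure D4:**
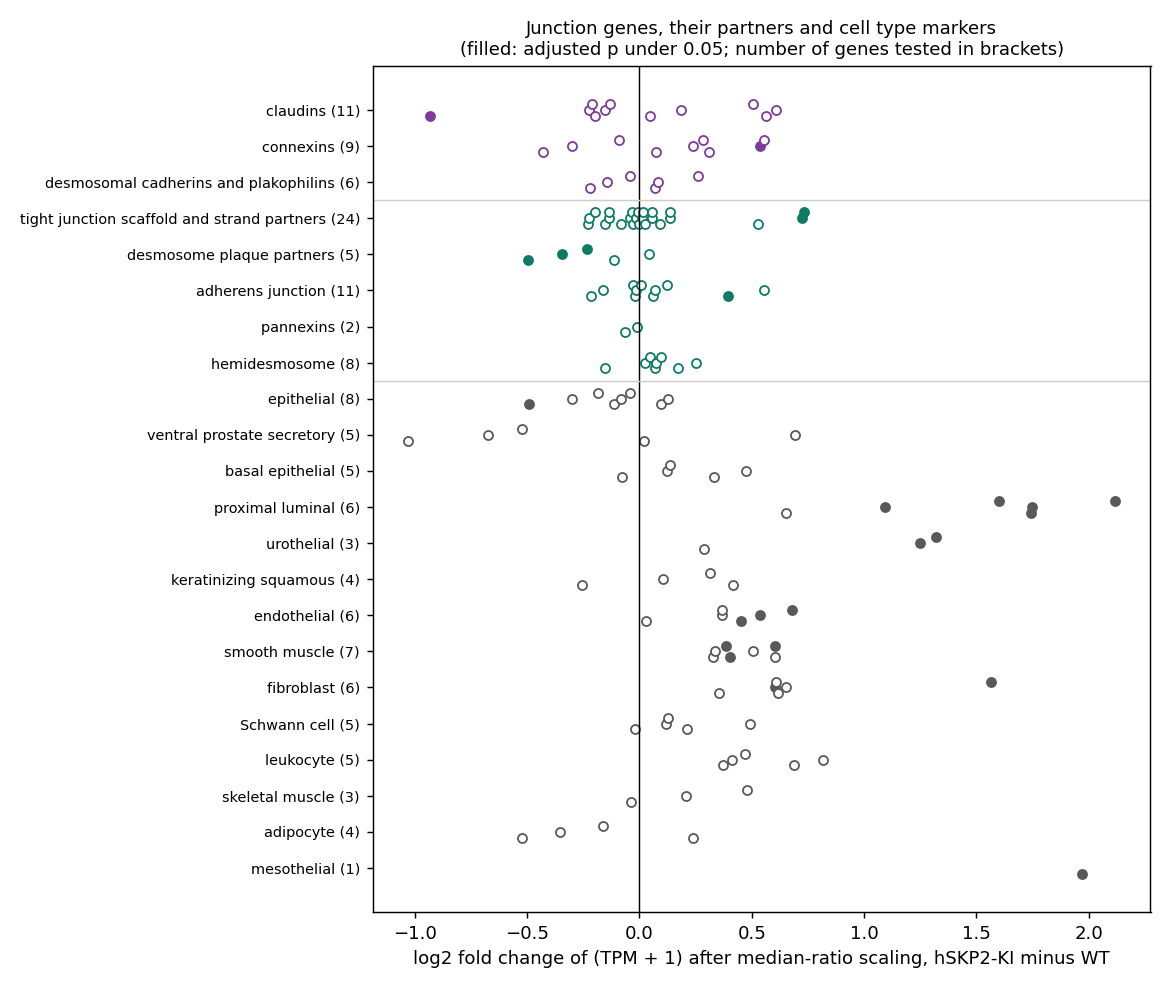
Log2 fold changes of TPM + 1 after median-ratio scaling (hSKP2-KI minus WT), 1 point per tested gene, for the junction families, their partner lists and the cell type marker lists, with called genes filled. Claudins run from -0.93 to 0.61, the desmosome plaque list has 3 filled points on the left, and the proximal luminal list has 5 of its 6 points filled on the right.

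Markers of several cell types also differed between genotypes, and their counts follow as genes called of genes tested. Endothelial markers, which bear on Cldn5, Gja4, Gja5, Jam2, Jam3 and Cdh5, were called higher for 5 of 6 tested (of 7 listed) in the TPM as deposited and for 3 after median-ratio scaling, none was listed at 0 throughout, and their summed TPM was 41.6 to 66.8 in hSKP2-KI and 24.2 to 34.8 in WT libraries. When the libraries were scaled to this list, an analysis added after the data were seen, the log2 fold changes were 0.19 for Cldn5 (adjusted p = 0.450, limma), 0.27 for Gja5 (adjusted p = 0.217) and -0.08 for Gja4 (adjusted p = 0.745). This scaling placed the median of all genes tested at -0.42, with 215 genes called higher and 3006 lower, and 0 junction members called higher and 8 lower. None of these 3 genes was called under this scaling, whose reference is the marker list and not the median of all genes. Their values lay above its median of -0.42, and Gja4 was not called in the TPM as deposited either. A reference list that is itself higher in hSKP2-KI lowers fold changes in general, so the lost calls cannot show whether endothelial cells had a part, which was not tested. Smooth muscle and fibroblast markers, beside Gja1 and Gjc1, were called higher for 7 of 7 and 6 of 6, and for 3 and 2 after scaling, with sums of 2825 to 4359 against 1937 to 2417 TPM and of 759 to 1333 against 420 to 605 TPM. In hSKP2-KI replicate 2, the library with the highest Gja1, Gja4, Gjc1, Cldn1, Cldn5, Cldn15 and Pkp1, the sums of 7 marker lists were also highest: fibroblast at 1333 TPM, smooth muscle at 4359, leukocyte at 109.9, basal epithelial at 426, urothelial at 1015, mesothelial at 10.6 and seminal vesicle at 0.656. The endothelial sum was highest in hSKP2-KI replicate 4, at 66.8 TPM against 51.7 in replicate 2. Gja5 in replicate 4 was the lowest of its group, at 1.89 TPM. The leukocyte list had 3 of 5 called higher and 0 after scaling, with sums of 51.6 to 109.9 against 27.5 to 59.7 TPM.

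Epithelial subtypes differed from one another. The general epithelial list had 3 of 8 called higher in the TPM as deposited, Epcam, Rab25 and Grhl2, while Krt8 and Krt18 were not called. After scaling, Spint1 alone was called, as lower. Sums over the list were 1825 to 2033 against 1573 to 1795 TPM. Proximal luminal markers were called higher for 6 of 6 and for 5 after scaling, with sums of 413 to 772 against 145 to 170 TPM. Urothelial markers were called for 3 of 3 and for 2 after scaling, with sums of 723 to 1015 against 398 to 663. These sums were mostly Upk1a, at 651 to 983 against 390 to 648 TPM and not called after scaling (adjusted p = 0.298, limma). In hSKP2-KI replicate 4 the urothelial sum was the lowest of its group and Upk2 the highest, at 13.6 TPM. Basal markers were called for 2 of 5 and 0 after scaling, with sums of 294 to 426 against 197 to 306, and keratinizing squamous markers for 1 of 4 and 0, with sums of 9.59 to 50.5 against 7.83 to 10.3. In hSKP2-KI replicate 4 the squamous gene Sprr1a stood at 38.7 TPM and the urothelial gene Upk3a at 12.5, far above the other 7 libraries, and Pkp1 in that library was the lowest of its group, at 8.06. Without this library 7 members were called in the TPM as deposited, 6 higher and Cldn23 lower.

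Schwann cell markers were called higher for 1 of 5 and 0 after scaling (sums 21.7 to 29.5 against 14.9 to 22.8 TPM), skeletal muscle for 1 of 3 and 0 (252 to 412 against 158 to 292), adipocyte for 0 of 4 under both (40.6 to 193 against 24.6 to 156), and mesothelial for the 1 tested, Msln, under both (2.11 to 10.6 against 0.132 to 0.742). Seminal vesicle markers did not reach 1 TPM in any library, 3 of 6 were listed at 0 throughout, and sums were 0 to 0.656 against 0 to 0.598. The part of these cell types in the junction gene differences was not tested. No list other than seminal vesicle had a marker at 0 throughout.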

How the data were processed

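Poly(A) RNA of the ventral lobes (4 hSKP2-KI mice, 4 WT mice) was sequenced as paired ends. The authors trimmed and mapped the reads in CLC software and deposited 1 table of TPM per gene. The submitters' processing notes name mm10 and GRCm38. The software version and the counting and strand options are not given in the sources used here. The table holds 0 columns of other samples, and TPM keeps no depth, so no count model, interval or floor was used.

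Groups came from the labels. The model was limma 3.58.1 (R 4.3.3; trend, no block) on log2(TPM + 1) of genes reaching 1 TPM in 4 or more samples, and p-values were adjusted over all genes tested. Members below the filter were tested by exact permutation, two-sided, over all 70 assignments. Median-ratio factors divide each sample by its median ratio to the geometric mean. Alternatives were other pseudocounts, filters, scalings, weights, a robust fit, a replicate block and leaving out each library. The script was tested on simulated data.

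Any member could be named. Per-sample values were given for called members without overlap, the 3 most abundant of each family and members below the filter that reach 1 TPM, and from each of the 5 partner lists up to 4 genes with the smallest adjusted p after median-ratio scaling, with those that fell. Members, partner lists and the 15 marker lists were chosen with earlier results of these data known. Afdn and Patj are listed as Mllt4 and Inadl. Positions are from GENCODE, promoters from RefSeq. Plots used matplotlib 3.10.9 (Python 3.11.15). Some genes are not reported here.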

Additional observations from a re-analysis of the deposited data

How the results depend on the processing

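Scaling changed these results most. The 4433 genes called in the TPM as deposited became 1461 after median-ratio scaling, 1317 after quantile normalization (709 higher, 608 lower), 1643 after scaling to epithelial markers and 1330 after rescaling without the 20 most abundant genes. The median log2 fold change of all genes tested was 0.23, -0.01, -0.03, 0.10 and 0.01 in that order. The 9 junction members called became 2, 1, 5 and 5 in the same order, and the 20 partner genes 6, 4, 5 and 5. Cldn23 was called lower under each of these. Gjb1 was also called lower without the 20 most abundant genes, at -0.41 (adjusted p = 0.0480, limma). Of the 2 members called after median-ratio scaling, 1 was left with a mean TPM of at least 5, where Gja5 is not tested, and between 1 and 3 with each library left out: 1 without hSKP2-KI replicate 2, WT replicate 3 or WT replicate 4, and 3 without WT replicate 2.

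Genes not called in the TPM as deposited could change sign. After median-ratio scaling the log2 fold changes that turned negative were Pkp2 -0.043, Dsp -0.11, Cldn4 -0.13, Pkp4 -0.14, Cldn7 -0.15, Cldn10 -0.20, Cldn3 -0.21, Pkp3 -0.22, Cldn12 -0.22 and Jup -0.23, of which Jup was called. Quantile normalization gave Cldn11 -0.022, Pkp2 -0.032, Dsc2 -0.037, Dsp -0.069, Pkp4 -0.10, Cldn7 -0.10, Cldn4 -0.12, Cldn10 -0.15, Jup -0.19, Cldn3 -0.19, Pkp3 -0.20 and Cldn12 -0.24. Without the 20 most abundant genes the values were Pkp2 -0.023, Dsp -0.091, Cldn4 -0.11, Pkp4 -0.12, Cldn7 -0.13, Cldn10 -0.18, Cldn3 -0.19, Pkp3 -0.20, Cldn12 -0.21 and Jup -0.21, and with epithelial markers Cldn4 -0.0056, Pkp4 -0.021, Cldn7 -0.028, Cldn10 -0.073, Cldn3 -0.086, Pkp3 -0.098, Cldn12 -0.11 and Jup -0.11. With endothelial markers, which placed the median of all genes at -0.42, the value was Gja4 -0.079, and with sample quality weights Cldn12 -0.011. Leaving out 1 library gave -0.10 to 0.19 for Cldn10, -0.088 to 0.095 for Cldn12, -0.0086 to 0.12 for Cldn3, -0.17 to 0.040 for Gjb2, -0.012 to 0.088 for Jup and -0.012 to 0.11 for Pkp3.

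Replicate numbers were not treated as pairs. Same-numbered mice, after removing genotype means, had correlations of 0.22, -0.11, 0.17 and -0.01 across genes, which are not independent. Differently numbered mice were not compared, so these values cannot show whether the numbers carry a pairing. With a replicate block, 10 members were called in place of 9, Gjc1 being added, 5128 genes in place of 4433, and 3 members in place of 2 after median-ratio scaling, Cldn5 being added. With no filter on low values 8 members were called, without Gja1 and Cldn15 and with Cldn34c1. TPM keeps no depth, so the counting error of low members such as Gja5 and Cldn15 is unknown.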
